A study of Homo sapiens with 5 samples.

Results

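This account describes 10 genes of prostaglandin synthesis, breakdown and reception in the human monocytic cell line MonoMac6: the cyclooxygenases PTGS1 and PTGS2, the terminal synthases PTGES, PTGES2, PTGES3 and TBXAS1, the degrading enzyme HPGD and the receptors PTGER1, PTGER2 and PTGER4. They were chosen by gene symbol, as all probe sets annotated to 1 of these symbols alone, which gave 22 probe sets for 10 of the 19775 genes that could be named on the array. Cultures received 100 nM of an eicosanoid from a stock in DMSO for 12 h, namely leukotriene B4, leukotriene C4, lipoxin A4 and, in the last, lipoxin B4, or stayed unstimulated, and 1 Affymetrix array was hybridised with total RNA of each. The sources used here do not say whether DMSO was added to unstimulated cells. With 1 array per condition there is no measured error, no test was possible, and each difference below is a difference between arrays.

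Prostaglandins are made from arachidonic acid that phospholipases release from membranes. The cyclooxygenases convert it to prostaglandin H2, from which terminal synthases make prostaglandin E2, thromboxane A2 and other products, while 15-hydroxyprostaglandin dehydrogenase (HPGD) inactivates them. In monocytes and macrophages PTGS1 is mostly constitutive and PTGS2 is a classical inducible gene of inflammation, and prostaglandin E2 acts on these cells largely through EP2 and EP4, the products of PTGER2 and PTGER4, which raise cAMP. Leukotrienes and lipoxins are made from the same arachidonic acid by lipoxygenases.

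Of the 22 probe sets, 19 were measured, that is, above a floor of 48.7 signal units on at least 1 array, and 15 were above it on all 5. All 10 genes had at least 1 measured probe set. Against unstimulated cells, 1 of the 19 was at least 2-fold apart with leukotriene C4 and 0 with leukotriene B4, lipoxin A4 or lipoxin B4. The probe set in question belongs to PTGER1, which was at least 2.23-fold higher. Over all 29426 measured probe sets of 1 symbol, the shares at least 2-fold apart were 2.83% with leukotriene B4, 3.23% with leukotriene C4, 2.53% with lipoxin A4 and 2.95% with lipoxin B4. The members' counts lie near this background. The median log2 difference of the 19 was 0.00, 0.08, 0.10 and -0.09 in the same order of compounds, beside 0.00, 0.02, 0.00 and 0.00 over all measured probe sets. In these bulk samples a change in the share of some cells and a change of RNA per cell cannot be told apart.

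Differences of dim probe sets scattered widely. The central 95% of log2 differences with leukotriene C4 ran from -1.10 to 1.04 for probe sets of a mean signal under 100, and from -0.31 to 0.42 for those over 2000. Of the 76 member differences (19 probe sets in 4 comparisons), 8 had both sides under the floor and are 0 by construction. Of the other 68, set against the range for their own signal class, 67 lay within it and 1, that of PTGER1 with leukotriene C4, lay above it. All 4 comparisons share the 1 unstimulated array, so a chance high or low reading on it enters each of them.

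The arrays carried a few features that touch these results. The middle control probe set for 18S ribosomal RNA had a signal of 913 with leukotriene B4, 3069 with leukotriene C4, 365 with lipoxin A4 and 1056 with lipoxin B4, against 187 in unstimulated cells. Signal ratios of the 3' to the 5' control probe sets were 0.996 to 1.06 for GAPDH and 1.098 to 1.134 for ACTB on the stimulated arrays, against 1.035 and 1.135 on the unstimulated array. Of 10 monocytic markers with a probe set here, 9 were measured. LYZ, ITGB2, SPI1 and CEBPA were bright, CD14 lay between 189 and 319, and FCGR1A was under the floor on all 5 arrays. The summed signal of the list was 91589, 98298, 94628 and 74371 with the 4 compounds and 102198 in unstimulated cells, a sum carried mainly by LYZ, ITGB2 and CEBPA. Of the 9 measured markers, 9 were below the unstimulated array with leukotriene B4 (median log2 difference -0.29), 6 with leukotriene C4 (-0.16), 7 with lipoxin A4 (-0.09) and 7 with lipoxin B4 (-0.47). Over all measured probe sets of 1 symbol, 43.9%, 40.9%, 44.5% and 47.5% were below it in the same order of compounds. The medians over all measured genes were 0.00, 0.06, 0.00 and 0.00. With lipoxin B4, LYZ, ITGB2 and CEBPA had -0.44, -0.48 and -0.48 on their brightest probe sets. That is the lower end of the range for a mean signal over 2000 (-0.48 to 0.43, median 0.035). Bright genes outside the list were lower there too, namely HSP90AA1 (-0.47), HSP90AB1 (-0.46) and TPSAB1 (-0.44). The marker values were not recomputed after quantile normalization. CD4 was at least 3.02-fold lower with leukotriene B4 and with lipoxin B4, the only monocytic marker at 2-fold on its brightest probe set. A second ITGAM probe set was higher with leukotriene C4, by a log2 difference of 1.21, against 0.08 on the brightest. Platelet and megakaryocyte markers, relevant because platelets are rich in PTGS1 and TBXAS1, had a summed signal over 5 genes of 183, 284, 242 and 155 on the stimulated arrays and 257 on the unstimulated array, with PPBP under the floor throughout and GP9 at 124 with lipoxin A4, against 62.0. Among 3 mast cell markers, TPSAB1 was bright (28140 to 39553), CPA3 was under the floor on all arrays and KIT was above it with leukotriene C4 alone (50.9). Their part in the results was not tested.

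The promoter-proximal sequence of the 3 members that stood furthest from unstimulated cells on the leukotriene C4 array, PTGER1 and PTGES (higher) and PTGS2 (lower), is shown because their starts are built differently. Each run is the 250 bases before the annotated gene start on the gene's strand, from RefSeq, build GRCh38.p14: chr1:186680424-186680673 (minus strand) for PTGS2, chr9:129753043-129753292 (minus strand) for PTGES and chr19:14475355-14475604 (minus strand) for PTGER1. Capitals mark matches on either strand to the motifs named after the sequences.
PTGS2: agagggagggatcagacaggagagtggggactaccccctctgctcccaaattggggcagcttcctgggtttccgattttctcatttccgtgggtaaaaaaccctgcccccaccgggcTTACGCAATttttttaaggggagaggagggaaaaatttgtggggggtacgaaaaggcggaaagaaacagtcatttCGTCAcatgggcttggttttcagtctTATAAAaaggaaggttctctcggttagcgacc
PTGES: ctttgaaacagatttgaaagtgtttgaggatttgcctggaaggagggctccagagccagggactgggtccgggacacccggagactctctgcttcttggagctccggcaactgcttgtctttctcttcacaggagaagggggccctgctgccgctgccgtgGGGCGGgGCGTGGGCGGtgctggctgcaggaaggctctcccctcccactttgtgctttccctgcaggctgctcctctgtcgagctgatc
PTGER1: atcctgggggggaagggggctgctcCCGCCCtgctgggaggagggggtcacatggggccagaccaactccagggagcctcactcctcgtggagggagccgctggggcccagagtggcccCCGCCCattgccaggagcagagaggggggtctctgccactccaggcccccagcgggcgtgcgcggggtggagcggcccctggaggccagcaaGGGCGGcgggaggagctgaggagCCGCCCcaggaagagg

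The motifs searched were the TATA box (TATAAA), the core of the cAMP response element (TGACG), a C/EBP site (TTNNGNAAT), the E-box (CACGTG), the GC box (GGGCGG), an AP-1 site (TGANTCA), an EGR1 site (GCGNGGGCG), the PU.1 core (GAGGAA) and the NF-kappaB site. The NF-kappaB site, searched as GGGRNNYYCC (R for A or G, Y for C or T), had no match in the 3 windows. A site that departs from these letters would be missed. In the PTGS2 window the C/EBP site began 133 bases, the cAMP response element core 58 bases and the TATA box 32 bases before the start. The PTGES window held GC boxes at 89 and 78 bases and an EGR1 site at 82 bases that overlaps the nearer GC box, and no TATA box. The PTGER1 window had GC boxes only, at 225, 131, 39 and 16 bases, in a window of 74.0% G and C against 50.4% for PTGS2. Among 35116 promoter windows of this length, 10.7% held the TATA box, 21.2% the cAMP response element core, 9.85% the C/EBP site, 42.6% the GC box and 8.41% the EGR1 site. The E-box was in 6.34%, the AP-1 site in 6.57%, the PU.1 core in 23.6% and the NF-kappaB site in 9.96%. Over the 14 windows of the 10 members, GC boxes occurred in 11 and the TATA box in 3 (PTGS1, PTGS2 and TBXAS1). A match is a description of the letters and not evidence of binding.

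**Figure D1:**
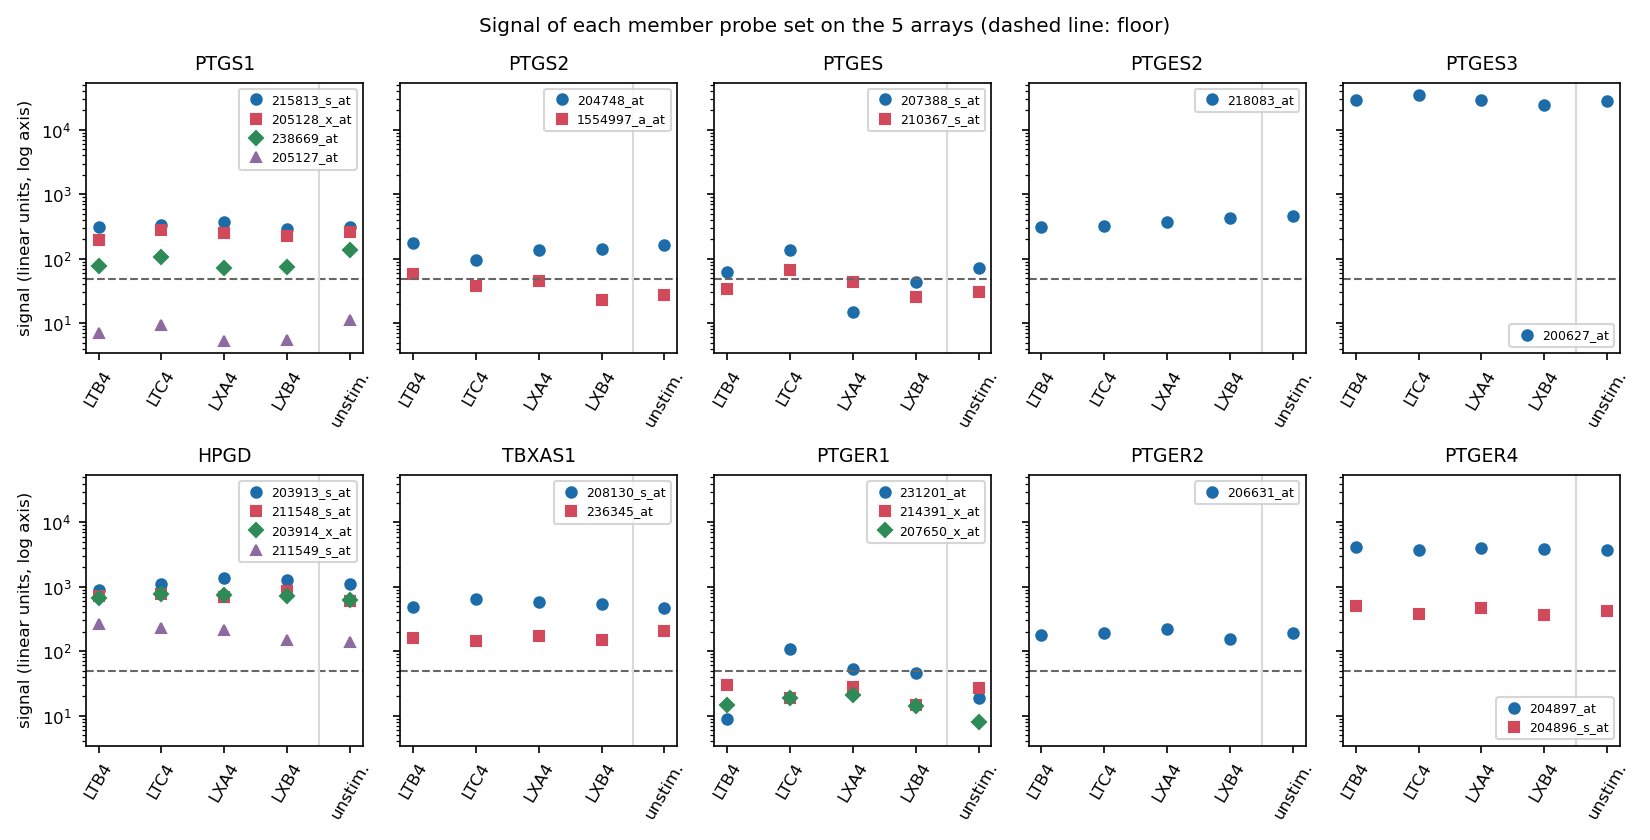
Signal of each of the 22 member probe sets (log axis, linear signal units) on the arrays of cells with leukotriene B4 (LTB4), leukotriene C4 (LTC4), lipoxin A4 (LXA4) and lipoxin B4 (LXB4) and of unstimulated cells, 1 point per array and 1 marker shape per probe set. The dashed line is the floor of 48.7; PTGER1 crosses it on the LTC4 and LXA4 arrays, at 108 and 53.4, and PTGES3 and PTGER4 stay far above it on all 5.

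PTGS2, the inducible cyclooxygenase, was dimmest with leukotriene C4 on its brighter probe set. That one (204748_at) had signals of 172 with leukotriene B4, 95.5 with leukotriene C4, 134 with lipoxin A4 and 144 with lipoxin B4, against 161 in unstimulated cells. The leukotriene C4 array was thus the lowest of the 5 and the leukotriene B4 array the highest, with a log2 difference from unstimulated cells of -0.75 for leukotriene C4 and 0.10 for leukotriene B4. A difference of -0.75 lay within the range for probe sets of a mean signal between 100 and 200 (-1.11 to 0.97). The second probe set (1554997_a_at) was above the floor with leukotriene B4 only, at 57.8, and had 37.1 with leukotriene C4, 45.8 with lipoxin A4, 22.6 with lipoxin B4 and 27.0 in unstimulated cells. On both probe sets the leukotriene B4 array was therefore the brightest. The second counts as measured through that array alone, so it gives no separate support for the first.

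PTGS1, the constitutive cyclooxygenase, gave different answers on its probe sets. The brightest (215813_s_at) had 310 with leukotriene B4, 328 with leukotriene C4, 376 with lipoxin A4 and 291 with lipoxin B4, against 309 in unstimulated cells, and the next (205128_x_at) had 194, 281, 255 and 229 against 262. Neither set the stimulated arrays apart from the unstimulated one. A dimmer probe set (238669_at) was lower on all 4 stimulated arrays, with 76.1, 107, 70.8 and 74.1 against 134, or log2 differences of -0.82, -0.33, -0.92 and -0.86. No array of stimulated cells reached the unstimulated level there, although all 4 values lay within the range for dim probe sets. The fourth (205127_at) lay between 5.3 and 11.1, under the floor on all 5 arrays.

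PTGES, the inducible microsomal prostaglandin E synthase, was brightest with leukotriene C4 on both of its probe sets. The first (207388_s_at) had 62.1 with leukotriene B4, 138 with leukotriene C4, 14.9 with lipoxin A4 and 43.4 with lipoxin B4, against 71.4 in unstimulated cells. With leukotriene C4 this was 1.94-fold (log2 0.95), just short of 2-fold, and both lipoxin arrays were under the floor, so that their difference is a bound (at least 1.47-fold lower). The second (210367_s_at) was above the floor with leukotriene C4 only, at 67.4, against 33.4, 43.0 and 25.2 on the other stimulated arrays and 30.4 in unstimulated cells, which is at least 1.38-fold higher. It counts as measured through that array alone, so it gives no separate support for the first. On the leukotriene C4 array PTGS2 was thus lower and PTGES higher than in unstimulated cells, each by less than 2-fold on its brighter probe set.

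PTGES2, a second membrane-associated prostaglandin E synthase, was lower on all 4 stimulated arrays. Its single probe set (218083_at) had 315 with leukotriene B4, 316 with leukotriene C4, 374 with lipoxin A4 and 421 with lipoxin B4, against 467 in unstimulated cells. Both leukotriene arrays lay below both lipoxin arrays, and the log2 differences from unstimulated cells were -0.57, -0.56, -0.32 and -0.15. All lay within the range for their signal class, which for leukotriene B4 was -0.74 to 0.68.

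PTGES3, the cytosolic prostaglandin E synthase that is also the HSP90 co-chaperone p23, was read by 1 very bright probe set (200627_at), with 28675 with leukotriene B4, 34969 with leukotriene C4, 28565 with lipoxin A4 and 24220 with lipoxin B4, against 28420 in unstimulated cells. Leukotriene B4 and lipoxin A4 matched the unstimulated level within a log2 difference of 0.01, leukotriene C4 was higher by 0.30 and lipoxin B4 differed by -0.23. The lipoxin B4 value turned to 0.10 after quantile normalization. HSP90AA1 and HSP90AB1, also bright, had -0.47 and -0.46 with lipoxin B4 on their brightest probe sets, and all their other probe sets were lower there too. Those 2 values lay within the range for probe sets of a mean signal over 2000 with lipoxin B4 (-0.48 to 0.43), near its lower end. They were not recomputed after quantile normalization. With leukotriene C4 the probe sets of HSP90AA1 and HSP90AB1 had either sign. RefSeq lists several PTGES3 pseudogenes, so part of this signal may come from copies that share sequence.

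TBXAS1, thromboxane A synthase, had 2 probe sets that differed in opposite directions on all 4 arrays. The brighter (208130_s_at) had 478 with leukotriene B4, 657 with leukotriene C4, 577 with lipoxin A4 and 543 with lipoxin B4, against 471 in unstimulated cells, with log2 differences of 0.02, 0.48, 0.29 and 0.21. The dimmer (236345_at) had 160, 142, 174 and 150 against 203, or -0.34, -0.51, -0.22 and -0.43. The leukotriene C4 array was the extreme on both, highest on one and lowest on the other. No direction is given for the gene.

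HPGD, which inactivates prostaglandin E2 by oxidising its 15-hydroxyl group, was slightly higher on most readings. The probe sets 211548_s_at and 203914_x_at had log2 differences between 0.12 and 0.50, from signals of 598 and 615 in unstimulated cells. A dimmer one (211549_s_at) had 263 with leukotriene B4, 226 with leukotriene C4, 217 with lipoxin A4 and 149 with lipoxin B4, against 141 in unstimulated cells, and its 0.90 with leukotriene B4 lay close to the upper end of the range for its class (0.95). The brightest (203913_s_at) had 901, 1123, 1347 and 1268 against 1113, so with leukotriene B4 it was lower (-0.31) while the other 3 were higher. Its leukotriene C4 value was 0.01, and -0.05 after quantile normalization. On 3 of the 4 probe sets the signal was thus above the unstimulated level on every stimulated array, and on the brightest it was not.

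Of the receptors, PTGER4, the EP4 receptor, spanned the least of the probe sets above the floor on all 5 arrays. Its main probe set (204897_at) had 4154 with leukotriene B4, 3671 with leukotriene C4, 3993 with lipoxin A4 and 3873 with lipoxin B4, against 3733 in unstimulated cells, a span of 1.13-fold. Its lipoxin B4 difference of 0.05 turned to -0.03 after quantile normalization. The second (204896_s_at) had 495, 378, 464 and 362 against 418. Both were highest with leukotriene B4 and both were below the unstimulated array with leukotriene C4, by log2 differences of -0.02 and -0.14. PTGER2, the EP2 receptor, had 177 with leukotriene B4, 193 with leukotriene C4, 218 with lipoxin A4 and 153 with lipoxin B4, against 190 in unstimulated cells. The unstimulated value fell inside the range of the stimulated ones, and the lipoxins stood at its ends.

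PTGER1, the EP1 receptor, which signals through calcium, was dim. Its probe set 231201_at had 9.0 with leukotriene B4, 108 with leukotriene C4, 53.4 with lipoxin A4 and 46.0 with lipoxin B4, against 19.1 in unstimulated cells. The leukotriene C4 array thus stood well above the floor, lipoxin A4 at its edge, and the other 3 under it, which makes the leukotriene C4 difference a bound (log2 of at least 1.16). The other 2 probe sets (214391_x_at and 207650_x_at) stayed under the floor on all 5 arrays, with 18.9 and 18.6 on the leukotriene C4 array, so the one 2-fold difference among the members rests on 1 dim probe set and 1 array. On that array the 18S control was also highest, and whether this bears on PTGER1 was not tested.

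**Figure D2:**
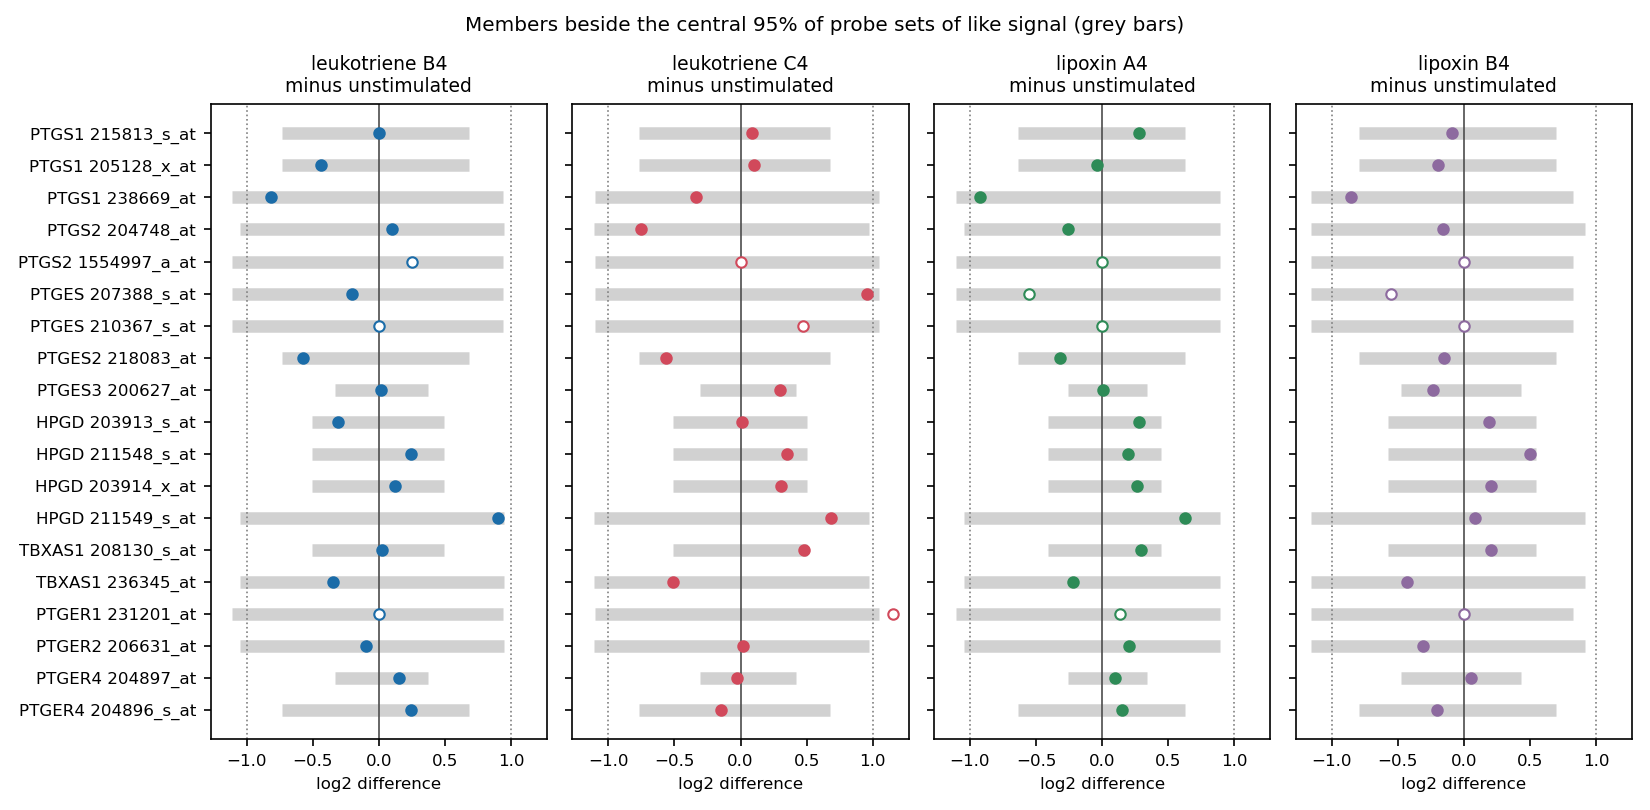
Log2 difference from the unstimulated array for the 19 measured member probe sets, 1 panel per eicosanoid; filled points are measured on both sides, open points have 1 or both sides under the floor. Grey bars span the central 95% of differences of all measured probe sets in the same class of mean signal, and dotted lines mark 2-fold; only PTGER1 with leukotriene C4 (1.16) lies outside its bar.

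Agreement between probe sets limited what could be said of single genes. There were 6 genes with several measured probe sets, which gave 24 combinations of gene and compound. In 9 of them all probe sets differed in 1 direction. These include PTGS2 with leukotriene B4 and PTGES with leukotriene C4, where the dimmer probe set was above the floor on that array alone. Its difference there could only be positive, so agreement in those combinations is not independent. In 6, all of PTGS2 or PTGES, 1 of the 2 probe sets was under the floor on both sides. There the other probe set alone gave the direction, so agreement could not be judged. In the remaining 9 the probe sets had opposite signs. TBXAS1 gave 4 of these 9, PTGS1 gave 3, and HPGD (with leukotriene B4) and PTGER4 (with lipoxin B4) 1 each.

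The 4 compounds were also set against each other at their shared dose and time. Of the leukotrienes, B4 carries hydroxyl groups on a free acid and C4 carries glutathione, while the lipoxins are trihydroxy acids whose hydroxyl positions differ. Of 19 member probe sets, 2 were at least 2-fold apart between leukotriene C4 and each of the other 3 compounds: PTGES and PTGER1. PTGES (207388_s_at) was 2.23-fold higher with leukotriene C4 than with leukotriene B4 and at least 2.84-fold higher than with either lipoxin. PTGER1 was at least 2.23-fold higher than with leukotriene B4 and lipoxin B4, and 2.03-fold higher than with lipoxin A4. The last of these fell short of 2-fold with signals as deposited (1.98-fold) and after quantile normalization (1.93-fold). The shares over all measured probe sets were 2.79% for leukotriene B4 against leukotriene C4, 2.49% for leukotriene C4 against lipoxin A4 and 2.41% for leukotriene C4 against lipoxin B4. Among probe sets of a mean signal under 100, the class of PTGES and PTGER1, they were 5.73%, 5.085% and 4.873% in the same order.

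Pairs without leukotriene C4 had 0 members 2-fold apart, beside 1.81% of all measured probe sets for leukotriene B4 against lipoxin A4, 1.73% for leukotriene B4 against lipoxin B4 and 1.56% for lipoxin A4 against lipoxin B4. For the lipoxin pair the members' log2 differences ran from -0.31 to 0.54, with no error to set beside them, which does not show that the isomers act alike. PTGS2 was 1.80-fold higher with leukotriene B4 than with leukotriene C4. All 6 of the 2-fold differences between compounds involve the 1 leukotriene C4 array.

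Genes whose pattern over the 5 arrays was most like that of a member were sought for PTGES and PTGER1, the members that spanned at least 2-fold on their brightest probe set, among 11016 genes above the floor on every array and by the Euclidean distance of centred log2 values. PTGER1 lay nearest to CCL2, a monocyte chemoattractant (distance 0.15 over 5 arrays), then to MCOLN2, an endolysosomal cation channel (0.26), and TRPV5, a calcium channel (0.26). CCL2 had 727 with leukotriene B4, 1805 with leukotriene C4, 777 with lipoxin A4 and 763 with lipoxin B4, against 769 in unstimulated cells. PTGES lay nearest to CMTM5 (0.36), TMEM200B (0.38) and SPACDR (0.46), dim genes with signals between 51.5 and 192. Both patterns include values set to the floor, on 3 arrays for PTGER1 and on both lipoxin arrays for PTGES, so these neighbours rest on the floor.

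The rest of the prostanoid pathway was read through 8 lists with 73 genes, of which 65 had a probe set here and 63 were measured. Against unstimulated cells, 1 of 63 was at least 2-fold apart with leukotriene B4, 2 with leukotriene C4, 2 with lipoxin A4 and 1 with lipoxin B4. Over all 15374 measured genes, each by its brightest probe set, the shares were 2.43%, 2.84%, 2.39% and 2.47%. Since the lists were drawn up with earlier results known, their counts are descriptions. Beside medians of 0.00, 0.06, 0.00 and 0.00 over all measured genes, the list medians lay between -0.25 and 0.20 for all lists but the receptors.

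Upstream, among 9 measured genes of arachidonic acid release and re-esterification, the cytosolic phospholipase A2 gene PLA2G4C was lower with lipoxin A4, at 91.7 against 206 in unstimulated cells (log2 -1.17), and was below the unstimulated array with each other compound as well. PLA2G4A, the main cytosolic phospholipase A2 of inflammation, had 2110, 2146, 1848 and 2178 with leukotriene B4, leukotriene C4, lipoxin A4 and lipoxin B4, against 1870. The lysophospholipid acyltransferase gene LPCAT3 had -0.64 with leukotriene C4 on its brighter probe set and at least 1.51 on its other, so its probe sets disagree. Both values lay outside the range of their signal class, -0.51 to 0.50 for the brighter and -1.10 to 1.04 for the other. PLA2G5 had 72.6 with lipoxin A4, against 32.5, under the floor, in unstimulated cells.

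Among 6 other synthases and 6 other genes of breakdown and transport, 0 were 2-fold apart. CBR1, a carbonyl reductase that acts on prostaglandins, was higher with both leukotrienes (3776 and 3794, against 2580 in unstimulated cells, log2 0.55 and 0.56) and closer to it with lipoxin A4 (2690) and lipoxin B4 (3033). Both leukotriene values lay above the range for probe sets of a mean signal over 2000, whose upper ends were 0.37 and 0.42. AKR1C3, a prostaglandin F synthase with near-identical paralogues, had 41.8, under the floor, with leukotriene B4, against 65.8 in unstimulated cells. PTGIS, prostacyclin synthase, had 0.30 with leukotriene C4 on its brightest probe set, and 0.06 and -0.12 on the other 2. The prostaglandin transporter gene SLCO2A1 had -0.72 with leukotriene B4, the prostaglandin reductase gene PTGR2 0.72 with lipoxin B4 and the carbonyl reductase gene CBR3 -0.54 with leukotriene B4. The CBR3 value lay just below the range for probe sets of a mean signal between 500 and 2000 (-0.51 to 0.49).

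The other prostanoid receptors were dim. PTGDR was under the floor on all arrays, and the 5 measured ones had medians of -0.25, -0.17, -0.35 and -0.59 with leukotriene B4, leukotriene C4, lipoxin A4 and lipoxin B4, with 0 of 5 at 2-fold on the brightest probe set of each. The lipoxin B4 median was the value of PTGER3, the EP3 receptor, whose probe sets disagreed. The one used (210374_x_at) had -0.39 with leukotriene C4 and -0.59 with lipoxin B4, while 213933_at had at least 1.33 and 0.53, past 2-fold with leukotriene C4, and 208169_s_at had at least 0.79 with lipoxin B4. TBXA2R, the thromboxane receptor, had 143, 151, 91.2 and 139 against 169 in unstimulated cells. Its probe sets 336_at and 211590_x_at were also lower on all 4 stimulated arrays. With leukotriene B4, 336_at had -1.12, a bound past 2-fold. Another of its probe sets (207555_s_at) ran the other way, with 124, 65.9, 72.4 and 81.6 against 64.5. PTGIR, the prostacyclin receptor, was under the floor on the first 3 stimulated arrays and had 56.4 with lipoxin B4, against 89.3, while its second probe set (206187_at) had 58.0, 79.5, 37.5 and 39.5 against 10.6. PTGFR, the prostaglandin F receptor, had -0.67 with lipoxin B4, where its second probe set (207177_at) was under the floor on both sides. That one had at least 0.53 with lipoxin A4, against -0.35 on the first.

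**Figure D3:**
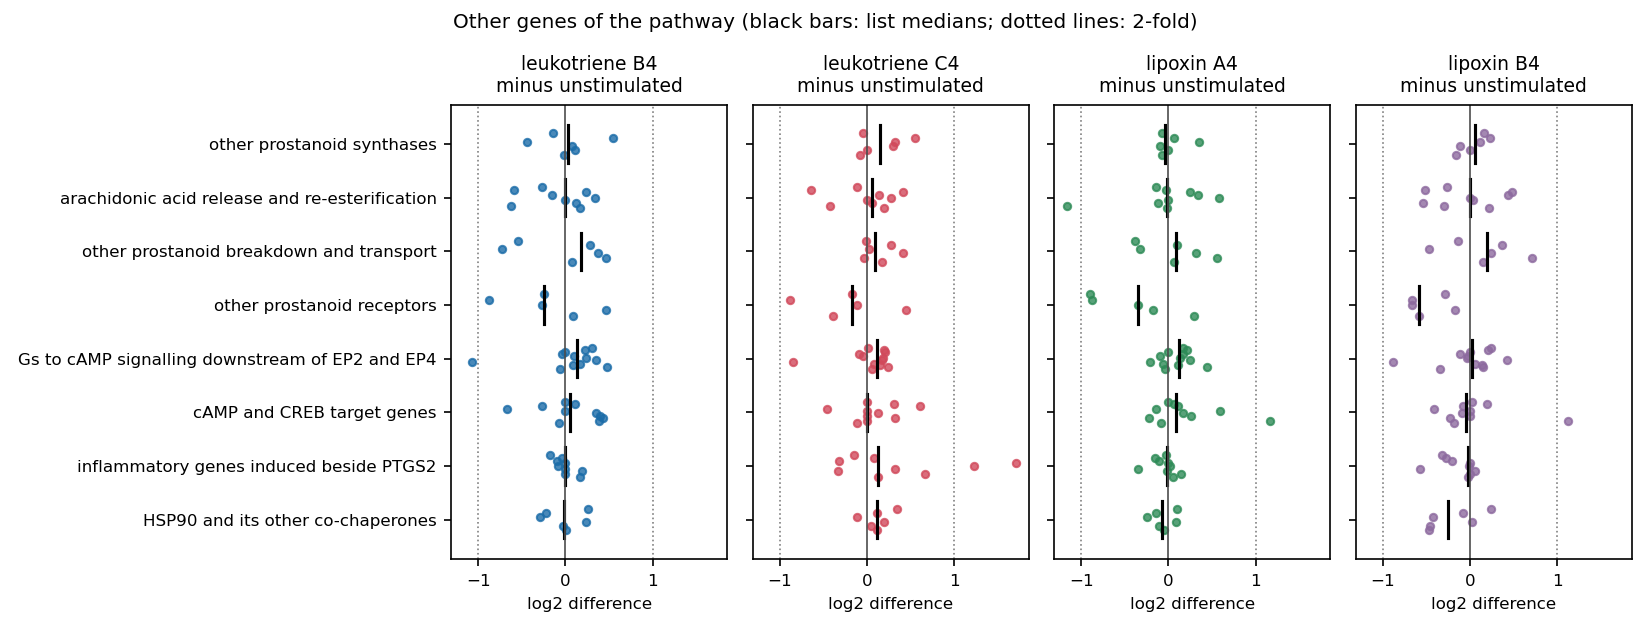
Log2 difference from the unstimulated array for the 63 measured genes of the 8 pathway lists, 1 point per gene by its brightest probe set and 1 panel per eicosanoid. Black bars are list medians and dotted lines mark 2-fold; the points beyond them are PRKACA (-1.07), CCL2 (1.23), CCL20 (1.71), PLA2G4C (-1.17) and NR4A1 (1.17 and 1.13), those of CCL20 and NR4A1 being bounds.

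Downstream of EP2 and EP4, PRKACA stood out among 12 measured genes of Gs and cAMP signalling. It encodes the catalytic subunit alpha of protein kinase A, and its brighter probe set (202801_at) had 896 with leukotriene B4, 1046 with leukotriene C4, 1625 with lipoxin A4 and 1021 with lipoxin B4, against 1875 in unstimulated cells. Lipoxin A4 lay near the unstimulated level (log2 -0.21) and the other 3 well below it (-1.07, -0.84 and -0.88). The second probe set (216234_s_at) had 85.1, 189, 262 and 85.8 against 270, the same direction on each array, with -1.66 for leukotriene B4 and -1.65 for lipoxin B4. At the signal of the brighter probe set 2-fold differences were rare: 0.238% of measured probe sets with a mean signal between 500 and 2000 were that far apart with leukotriene B4. In the class of the second, between 100 and 200, 5.12% were. PRKACB, the beta subunit, had 0.42 with lipoxin B4 on its brightest probe set, against -0.19 on the second and -0.15, a bound, on the third. The adenylyl cyclase gene ADCY3 had 0.48 with leukotriene B4 on one probe set and -0.13 on the other.

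Among 10 measured cAMP and CREB target genes, NR4A1, a nuclear receptor induced by cAMP, was at least 2.25-fold higher with lipoxin A4 and at least 2.19-fold higher with lipoxin B4, from 109 and 107 against 35.2 in unstimulated cells. Its probe set 211143_x_at ran the other way, with 72.8 and 54.0 against 88.6. Its probe set 210226_at had 75.2 with lipoxin A4 against 40.1, at least 0.63 higher, and was under the floor on both sides with lipoxin B4. RGS2, a regulator of G protein signalling, had 0.60 with leukotriene C4 and the kinase gene SIK1 -0.66 with leukotriene B4. Of 9 inflammatory genes commonly induced beside PTGS2, CCL2 (1.23) and CCL20 (at least 3.28-fold) were higher with leukotriene C4, where PTGS2 itself had -0.75, and IL6 was next, with 77.5 against 45.2, which is under the floor. IL1B had 1144, 1116, 1059 and 1000 with the 4 compounds against 1020 on its brighter probe set, and TNF had 639, 443, 553 and 583 against 559. Among 6 measured HSP90 and co-chaperone genes 0 were 2-fold apart. CDC37 had -0.43 with lipoxin B4, within the range for its signal class (-0.48 to 0.43).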

How the data were processed

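Total RNA of 5 MonoMac6 cultures was hybridised to 1 array each, and groups were taken from the sample titles. The authors' table holds linear intensity values of 54675 probe sets, made with GCOS 1.4 per the submitters' processing notes. Which signal algorithm was set in it is not given here. Genes were named from the platform annotation where a probe set had 1 symbol (41097 probe sets; 1801 had several and 11777 were unlisted). Signals were converted to log2, arrays were brought to an equal median over the brighter 50% of probe sets, and values under the 50th percentile of mean log2 signal (a floor of 48.7) were set to it for differences; signals are printed without the floor. Log2 differences against a value under the floor are bounds. A gene's brightest probe set stood for it. A probe set was counted as apart at 2-fold or more, and no p-value was computed. Of the members all probe sets were described; of each list the 3 genes with the largest difference in any comparison, and any at 2-fold, were named, together with PLA2G4A, PTGDS, HPGDS, PTGER3, IL1B and TNF, chosen after their values were seen. Members, lists and tests were chosen with earlier results of these data known, and the promoters shown were picked after seeing values. The counting was tested on simulated data with changes in bright probe sets only and less scatter than seen here. That test does not cover calls of dim probe sets. Analyses used Python 3.11.15, numpy 2.4.6 and pandas 2.3.3. Alternatives were other floors, a pseudocount, other scalings, other probe set choices and leaving out the leukotriene C4 or lipoxin B4 array.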

Additional observations from a re-analysis of the deposited data

Results flagged for a closer look

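The 18S ribosomal RNA control probe sets enter no comparison of genes and were brighter on all stimulated arrays than on the unstimulated one. The middle probe set was 4.90-fold with leukotriene B4, 16.5-fold with leukotriene C4, 1.96-fold with lipoxin A4 and 5.66-fold with lipoxin B4 over unstimulated cells. The highest value fell on the array that also carried the highest signals of PTGES and PTGER1 and the lowest of PTGS2 on the brightest probe set of each, though not on the other probe sets of PTGS2 and PTGER1, and its part in those values was not tested.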

How the results depend on the processing

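Counts moved mainly with the floor. With the floor at the 30th percentile of mean signal (17.4), 21 of 22 member probe sets were measured, and 1 was at least 2-fold apart from unstimulated cells with leukotriene B4, 2 with leukotriene C4, 2 with lipoxin A4 and 1 with lipoxin B4. Those added were a second PTGS2 probe set with leukotriene B4, a second PTGES probe set with leukotriene C4, PTGES (-2.04) and PTGER1 (1.48) with lipoxin A4, and PTGER1 (1.27) with lipoxin B4. Differences of 2-fold among the 6 pairs of compounds then numbered 14 in place of 6. With the floor at the 70th percentile (244), 11 probe sets were measured and 0 were 2-fold apart with leukotriene C4 or in any pair of compounds, since PTGER1 and PTGES lay under that floor. Quantile normalization gave 2 with leukotriene C4, where PTGES had 1.07. Quantile normalization and the signals as deposited gave 5 differences between compounds, each without PTGER1 between leukotriene C4 and lipoxin A4. With log2(signal + 50) and no floor, 3 differences between compounds were left. Leaving out probe sets ending in _x_at or _s_at left 9 measured and 3 differences between compounds. In 2 alternatives chosen after seeing the data, 0 differences between compounds were left without the leukotriene C4 array and 4 without the lipoxin B4 array. Over all alternatives, 295 of 300 gene values kept their side of 2-fold and 18 changed sign, none of them at 2-fold in the values reported. Under quantile normalization the value that moved furthest was PTGES3 with lipoxin B4 (0.10, against -0.23 as reported). No paired analysis was possible because each group has 1 array. Signal near background limits PTGER1, PTGES and the second PTGS2 probe set.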

Other observations

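Outside the members, PTGDS and PTGIS were well above the floor on every array. The 3 probe sets of PTGDS, a prostaglandin D synthase, had signals between 1295 and 7706 on the stimulated arrays, against 1405 to 7776 in unstimulated cells. Those of PTGIS, prostacyclin synthase, lay between 1151 and 5509, against 1319 to 4484. HPGDS, the haematopoietic prostaglandin D synthase, had 52.7 with leukotriene B4, 39.8 with leukotriene C4, 11.3 with lipoxin A4 and 34.2 with lipoxin B4, against 7.6, so it crossed the floor with leukotriene B4 only.

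The 2 probe sets of PRKACA gave the same order of arrays, with leukotriene B4 lowest and the unstimulated array highest, with lipoxin B4, leukotriene C4 and lipoxin A4 in that order between them. Those of LPCAT3 disagreed on all 4 arrays: the brighter had log2 differences of -0.59, -0.64, -0.03 and -0.51 with leukotriene B4, leukotriene C4, lipoxin A4 and lipoxin B4, and the dimmer had at least 0.93, 1.51, 0.75 and 1.22, since its unstimulated signal of 37.8 was under the floor.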
